A study of Mus musculus with 14 samples.

Results

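CD24medCD49f-/low luminal cells of the mouse mammary gland were set against CD24medCD49fmed myoepithelial cells, that is, a population of the gland's inner layer against one of its outer layer. The populations were defined by the label titles, which assign 2 arrays to CD24medCD49f-/low and 3 arrays to CD24medCD49fmed cells (CD24lowCD49fmed in the methods of the study), together 5 of the 14 arrays of the series. The remaining arrays hold 3 each of CD24highCD49fmed cells, which the study takes as luminal progenitors, and of the basal Thy-1+CD24medCD49fhigh and Thy-1-CD24medCD49fhigh populations. All groups came from untreated virgin C57BL/6 mice aged 6 to 8 weeks, with no transgene or mutation in the labels. Freshly dissociated cells were stained for CD45, CD31 and Ter119 (surface proteins of blood, endothelial and red cells) and for CD49f, CD24 and Thy-1, then sorted and sorted again. RNA was amplified in repeated cycles of in vitro transcription from its 3′ ends and hybridized to Affymetrix mouse genome arrays. The title of CD24medCD49fmed replicate 3 reads 3v, which the labels do not explain. Whether the replicates stem from different animals is not labelled, so the p-values measure the spread between arrays, which may be technical.

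CD24 and CD49f (integrin alpha 6) are surface proteins by which luminal and basal cells of the mouse gland can be separated by flow cytometry. Luminal cells line ducts and alveoli, form the tight seal around the lumen and, under prolactin, make and secrete milk. Myoepithelial cells lie beneath them on the basement membrane, which they help to build. They contract in response to oxytocin and push milk along the ducts, using the actin and myosin of smooth muscle together with basal keratins.

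Values below are log2 signals that the authors centred on the mean of the 14 arrays for each probe set, so that 0 is the gene's own mean over the series, and a difference of 1 is a doubling. Levels cannot be compared between genes on this scale. In sorted bulk RNA, fewer cells of a type and less RNA per cell cannot be told apart. A difference is CD24medCD49f-/low minus CD24medCD49fmed, and "rose" and "fell" describe CD24medCD49f-/low cells in which the two-sided limma adjusted p was under 0.05 in the fit across 7190 rows.

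Markers of both layers followed the names that the study gives the populations. Ltf, which encodes the iron-binding milk protein lactoferrin, measured 3.83 and 3.85 in the CD24medCD49f-/low arrays, against -1.95, -2.22 and -2.36 in the CD24medCD49fmed arrays. The groups lay far apart, and Ltf rose 64.7-fold (6.02 log2, SE 0.24, limma adjusted p = 2.26e-06). Lalba, the alpha-lactalbumin subunit of lactose synthase, measured 1.65 and 1.14 in CD24medCD49f-/low cells and -0.49, -0.61 and -0.71 in CD24medCD49fmed cells (difference 2.00, SE 0.26, limma adjusted p = 0.00036). Acta2, the smooth muscle actin of contractile cells, measured -2.11 and -2.08 in CD24medCD49f-/low cells, against 1.72, 1.52 and 1.43 in CD24medCD49fmed cells. All CD24medCD49f-/low values lay below all CD24medCD49fmed values, with a difference of -3.65 (SE 0.24, limma adjusted p = 8.82e-06). Oxtr, the oxytocin receptor, stood at -2.07 and -1.68 in CD24medCD49f-/low cells and at 1.56, 1.68 and 1.73 in CD24medCD49fmed cells (difference -3.53, SE 0.24, limma adjusted p = 1.26e-05). For each of these 4 genes a two-sided exact permutation test gave p = 0.1, the smallest value that 10 splits of 2 against 3 arrays allow. The luminal keratins Krt8, Krt18 and Krt19 rose by 1.64, 2.50 and 2.87, and the basal genes Krt5, Krt14, Myh11 and Trp63 differed by -4.78, -4.26, -3.73 and -4.71.

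**Figure D1:**
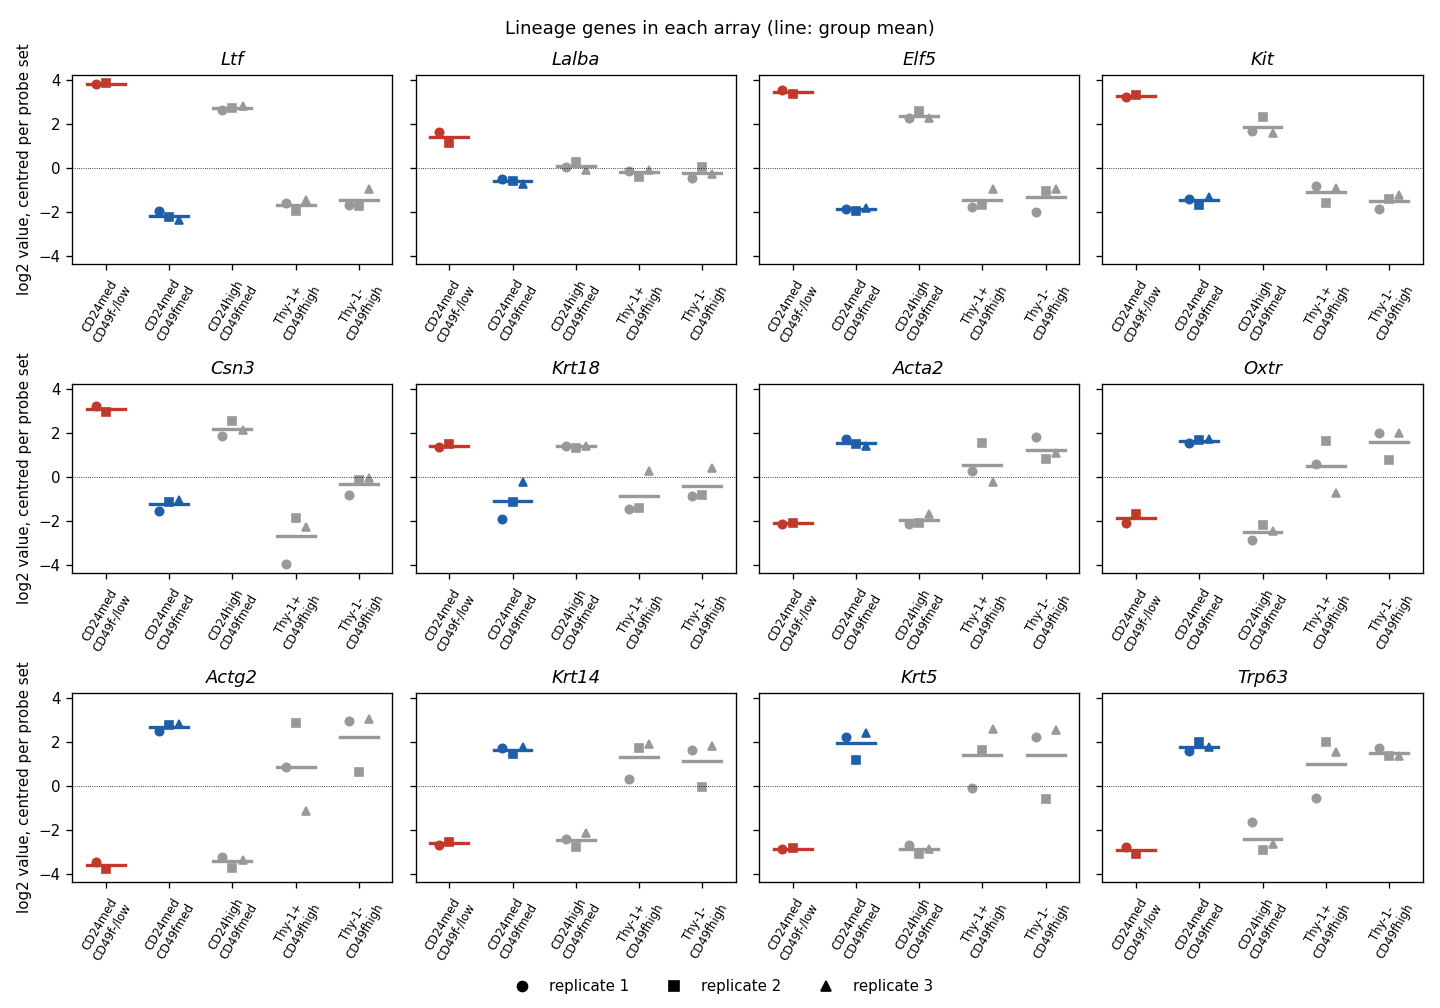
Centred log2 values (y axis) of 12 lineage genes in each of the 14 arrays, by population (x axis), with symbols for replicates, lines for group means and grey for the other populations. Ltf lies at 3.83 and 3.85 in CD24medCD49f-/low cells and between -2.36 and -1.95 in CD24medCD49fmed cells, and Acta2 lies at -2.11 and -2.08 against 1.43 to 1.72.

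Over all genes, 2503 of 7190 rows (34.8%) passed the threshold, 1184 (16.5%) higher and 1319 (18.3%) lower in CD24medCD49f-/low than in CD24medCD49fmed cells. Differences of at least 4 log2 were more often downward, with 28 called rows higher and 66 lower. All probe sets had passed a filter on their range over the arrays, of which the smallest was 2.00 log2, so these shares refer to variable genes. Counts of called genes in the lists below are to be read beside these shares. Without CD24medCD49f-/low replicate 1 the test called 1541 rows (675 higher and 866 lower), and without replicate 2 of that group it called 1456 (581 higher and 875 lower). With all 14 arrays in 1 fit it called 1289 (537 higher and 752 lower). The groups did not overlap in 4319 rows (60.1%). The median difference over all rows was 0.03. The CD24medCD49f-/low arrays correlated with each other at r = 0.885 over rows, and pairs of CD24medCD49fmed arrays at 0.449 to 0.684, a description across genes that share arrays.

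**Figure D2:**
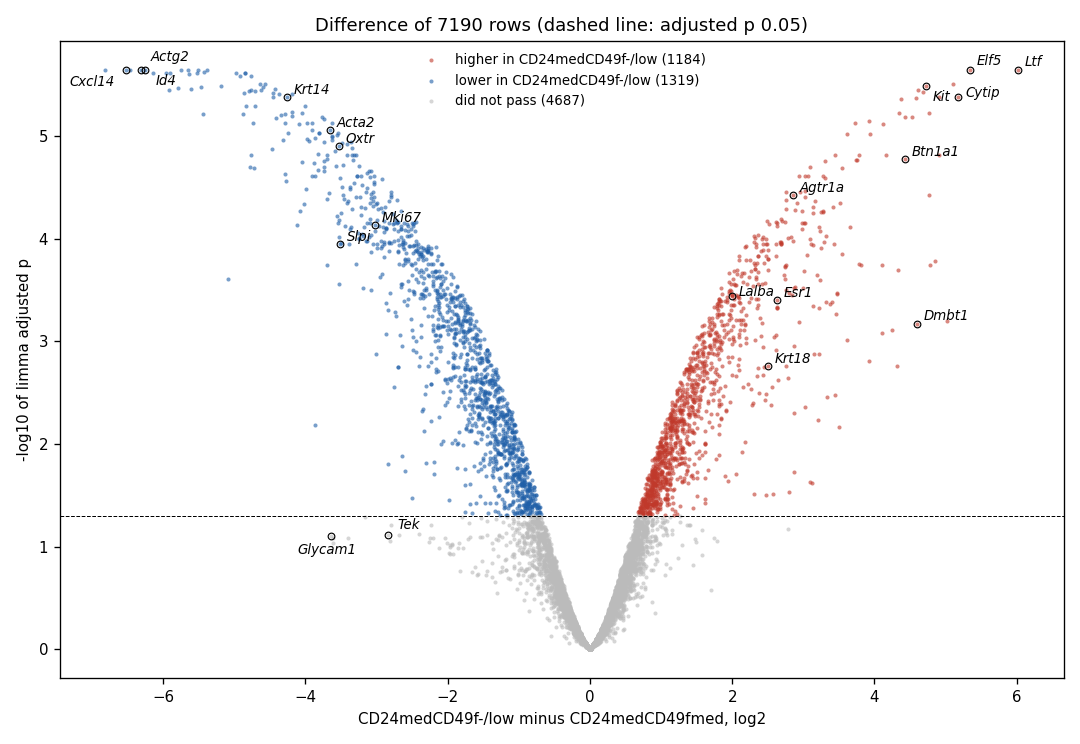
Difference in log2 (x axis, CD24medCD49f-/low minus CD24medCD49fmed) against -log10 of the limma adjusted p (y axis) for 7190 rows, 1184 red (higher in CD24medCD49f-/low), 1319 blue (lower) and the others grey. Named genes are circled, with Ltf at 6.02 to the right, Cxcl14 at -6.52 to the left, and Tek and Glycam1 below the dashed threshold line.

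Sequences just upstream of marker genes were read beside these values, because smooth muscle genes often carry CArG boxes, the sites of serum response factor, and some milk genes are controlled by ETS factors such as Elf5. Windows of 250 bases before the annotated start came from RefSeq (build GRCm38.p6). The first pair shows the contractile genes Acta2 (chr19:34255374-34255623, minus strand) and Myl9 (chr2:156775214-156775463, plus strand), with CArG boxes in capitals. These begin at positions -84 and -34 in Acta2 and at -161 and -99 in Myl9, counted back from the start.
Acta2: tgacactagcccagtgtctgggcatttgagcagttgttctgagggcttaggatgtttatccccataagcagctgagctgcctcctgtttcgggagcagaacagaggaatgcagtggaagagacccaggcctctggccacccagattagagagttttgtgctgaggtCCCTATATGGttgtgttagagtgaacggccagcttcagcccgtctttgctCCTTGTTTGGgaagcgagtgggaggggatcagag
Myl9: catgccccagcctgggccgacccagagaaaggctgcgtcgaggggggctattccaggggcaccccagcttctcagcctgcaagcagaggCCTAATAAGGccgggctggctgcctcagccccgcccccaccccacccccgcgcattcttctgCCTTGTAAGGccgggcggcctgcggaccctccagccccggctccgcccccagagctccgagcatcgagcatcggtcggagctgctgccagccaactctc
The second pair shows the milk genes Ltf (chr9:111019042-111019291, plus strand) and Lalba (chr15:98482684-98482933, minus strand), with the ETS-like letters AGGAAG, or CTTCCT on the opposite strand, in capitals. They begin at position -139 in Ltf and -93 in Lalba.
Ltf: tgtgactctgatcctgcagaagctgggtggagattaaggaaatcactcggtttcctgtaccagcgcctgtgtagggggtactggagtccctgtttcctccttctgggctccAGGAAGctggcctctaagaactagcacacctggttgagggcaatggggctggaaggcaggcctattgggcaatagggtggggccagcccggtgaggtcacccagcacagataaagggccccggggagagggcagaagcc
Lalba: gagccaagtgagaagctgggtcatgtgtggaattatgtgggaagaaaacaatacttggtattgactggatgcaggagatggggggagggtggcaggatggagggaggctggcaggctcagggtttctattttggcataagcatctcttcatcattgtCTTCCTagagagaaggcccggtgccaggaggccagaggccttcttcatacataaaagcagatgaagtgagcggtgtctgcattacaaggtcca

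A CArG box was taken as CC and GG around 6 inner bases of which at least 5 were A or T, a pattern that reads alike on both strands. Such a box was found in 8.59% of all 32851 windows. Of the contractile genes that fell, 14 of 17 matched a window, and 4 of their 15 windows held a box (Acta2, Myl9, Pdlim3 and Synm). Among milk genes that rose, 6 of 11 matched a window and 0 of 6 windows held one. AGGAAG on either strand was present in 29.5% of all windows, in 3 of the 6 windows of milk genes (Lalba, Ltf and Mfge8) and in 1 of the 15 contractile windows (Tpm2). Of the luminal progenitor and alveolar regulators that rose, 5 of 9 matched a window. AGGAAG was in 4 of their 13 windows (30.8%), from Kit and Stat5a, close to the share of all windows. The windows of Elf5 itself held no match. The letters TTCNNNGAA of Stat5 sites were in 7.02% of all windows and in 1 of 6 milk windows (B4galt1). These matches describe letters in short windows, and binding was not tested.

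Other markers varied among the myoepithelial arrays. The endothelial list (17 measured of 19) had a median of -0.68 in both CD24medCD49f-/low arrays, and of 2.20, 0.63 and -0.70 in CD24medCD49fmed replicates 1, 2 and 3. Tek, an endothelial angiopoietin receptor, measured -1.42 and -1.77 in CD24medCD49f-/low cells and 3.05, 2.28 and -1.60 in CD24medCD49fmed cells, so that the groups overlapped through replicate 3 (difference -2.84, limma adjusted p = 0.0774). Cdh5, Kdr and Cldn5 had the same order among the 3 CD24medCD49fmed arrays, with 2.91, 3.10 and 3.44 in replicate 1. In this list 0 genes rose and 3 fell (Esam, Cd34 and Sox18), beside 16.5% higher and 18.3% lower over all rows. Without CD24medCD49fmed replicate 3, 15 fell, with Tek at -4.26 (limma adjusted p = 4.32e-05), and without CD24medCD49f-/low replicate 1 none passed. The cornified keratinocyte list (8 of 12 measured) split the arrays differently, with medians of -1.15 and -1.29 in CD24medCD49f-/low cells and of -1.31, 2.19 and 1.88 in CD24medCD49fmed cells. Krt10, a keratin of differentiated epidermis, measured -1.79 and -1.64 in CD24medCD49f-/low cells and -1.56, 2.39 and 2.41 in CD24medCD49fmed cells. Lgals7 alone of this list passed the test, and no gene of it passed without CD24medCD49f-/low replicate 1 or 2 or CD24medCD49fmed replicate 2. Without CD24medCD49fmed replicate 1, 6 genes fell, with Krt10 at -4.11 (limma adjusted p = 1.1e-06).

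The counts in the next lists stand beside 16.5% higher and 18.3% lower over all rows, and several are close to these shares. Pericyte markers (7 of 8 measured) gave 4 genes that fell, among them Rgs5 and Pdgfrb, and 1 that rose, Notch3. Without CD24medCD49f-/low replicate 2, 1 gene of that list fell, the calls of Rgs5, Kcnj8 and Abcc9 being lost, and 2 fell without CD24medCD49f-/low replicate 1 or CD24medCD49fmed replicate 2. In the fibroblast list (10 of 15 measured), 4 genes fell and 1 rose. Col3a1 measured -0.11 and -1.64 in CD24medCD49f-/low cells and 2.00, 0.76 and 0.88 in CD24medCD49fmed cells, while Col1a1, at -0.15 and -0.88 against 0.40, -0.44 and -0.29, did not pass. The call of Col3a1 was lost without CD24medCD49f-/low replicate 2 (-1.33, limma adjusted p = 0.115). Of the adipocyte list 3 of 10 were measured and 2 fell (Fabp4 and Lep), 1 of them without CD24medCD49f-/low replicate 2 or CD24medCD49fmed replicate 2, and of the Schwann list 6 of 10 were measured, with 2 that fell (Pmp22 and Mbp) and 1 that rose (Erbb3). Of 6 myeloid genes measured of 19, Lyz2 rose, at 2.30 and 0.22 in CD24medCD49f-/low cells and -0.26, -0.34 and -0.49 in CD24medCD49fmed cells, and without CD24medCD49f-/low replicate 1 no myeloid gene passed (Lyz2 0.58, limma adjusted p = 0.298), nor without CD24medCD49fmed replicate 2 or 3. None of 3 lymphoid genes measured passed, although 2 fell without CD24medCD49fmed replicate 2, and no erythroid gene was in the table. The stains for CD45, CD31 and Ter119 mark blood and endothelial cells, and the methods of the study also list an antibody to CD140α, a surface protein of fibroblasts, which the labels of these arrays do not name. The part of RNA from other cells in the differences below was not tested.

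**Figure D3:**
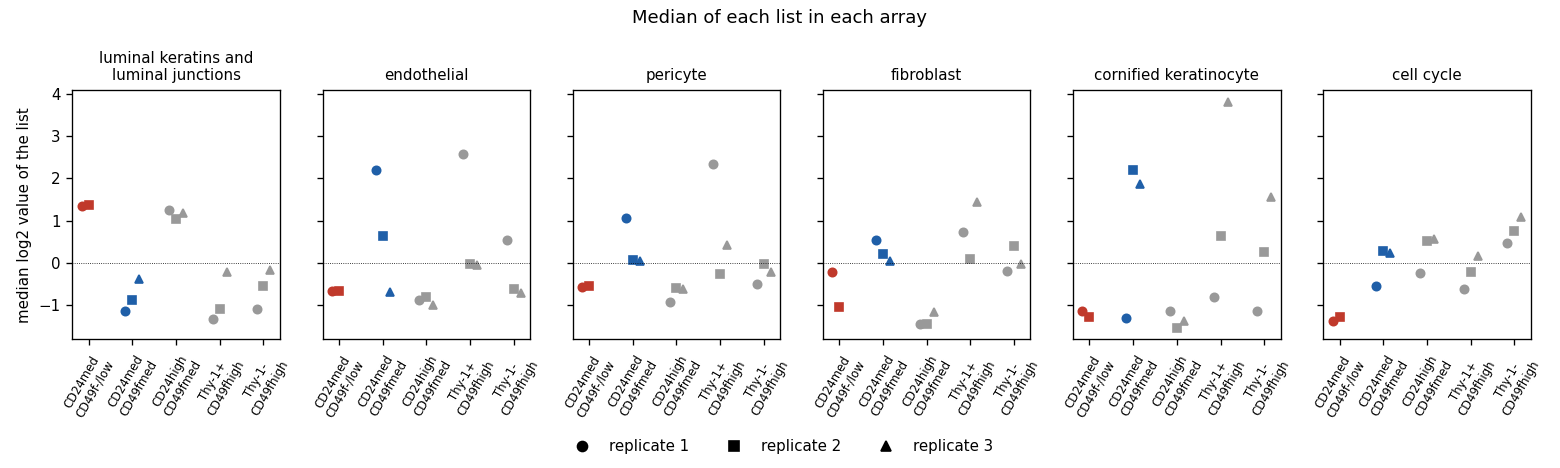
Median centred log2 value (y axis) of 6 gene lists in each array, by population (x axis), with symbols for replicates. The endothelial median is 2.20 in CD24medCD49fmed replicate 1 and -0.68 in both CD24medCD49f-/low arrays, the cornified median is 2.19 and 1.88 in replicates 2 and 3, and the luminal list is least negative (-0.38) in replicate 3.

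Genes of milk were mostly higher in CD24medCD49f-/low cells, although the mice were virgin. Of 27 listed genes 13 were measured, of which 11 rose, 0 fell and 2 did not pass, with a median of 2.00. Besides Ltf and Lalba, Csn3, the kappa-casein that stabilizes casein micelles, measured 3.23 and 2.98 in CD24medCD49f-/low cells, against -1.53, -1.11 and -1.06 in CD24medCD49fmed cells. That is a 20.3-fold rise (limma adjusted p = 5.98e-06). Btn1a1, a butyrophilin of the milk fat globule membrane, measured 3.65 and 2.60 in CD24medCD49f-/low cells and -1.23, -1.41 and -1.26 in CD24medCD49fmed cells (difference 4.43). Xdh, xanthine dehydrogenase, which acts with butyrophilin in lipid droplet secretion, rose by 1.83, the folate receptor Folr1 by 2.74 and the mucin Muc15 by 2.63. Mfge8, another globule protein, rose by 1.09, a call lost when CD24medCD49f-/low replicate 1 was left out (0.99, limma adjusted p = 0.0786).

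The casein genes did not all move alike. Csn1s2a measured 1.61 and 0.42 in CD24medCD49f-/low cells, against -0.43, -0.95 and -0.60 in CD24medCD49fmed cells, and rose by 1.67 (limma adjusted p = 0.00607), but by 1.08 (adjusted p = 0.0776) without CD24medCD49f-/low replicate 1. Csn2, beta-casein, measured 0.82 and -0.03 in CD24medCD49f-/low cells and 0.07, -0.33 and -0.28 in CD24medCD49fmed cells, and did not pass (limma adjusted p = 0.185). Glycam1, a mucin-like whey component that high endothelial venules also express, went the other way. It measured -1.62 and -1.90 in CD24medCD49f-/low cells and 4.38, 3.06 and -1.80 in CD24medCD49fmed cells, high in the same 2 arrays as Tek (difference -3.64, SE 1.43, limma adjusted p = 0.079, and -5.48 with adjusted p = 3.46e-05 without CD24medCD49fmed replicate 3).

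Regulators of the luminal progenitor and alveolar fate formed the second group. Of 15 measured genes (23 listed), 9 rose and 2 fell, and the median was 1.38. Elf5, the ETS factor that drives alveolar differentiation, measured 3.54 and 3.39 in CD24medCD49f-/low cells, against -1.87, -1.95 and -1.80 in CD24medCD49fmed cells. With a difference of 5.34 (SE 0.23, limma adjusted p = 2.26e-06), its change was second only to that of Ltf among the named genes that rose. This rank belongs to the main fit, with probe sets averaged. Over the alternatives the highest difference was 6.07 for Elf5, 6.51 for Cytip and 6.24 for Clic6. Kit, the stem cell factor receptor, measured 3.24 and 3.30 in CD24medCD49f-/low cells and -1.40, -1.69 and -1.31 in CD24medCD49fmed cells (difference 4.73). Both genes separated the groups by more than 4 log2 in every pair of arrays. Aldh1a3, a retinaldehyde dehydrogenase, rose by 4.38 and Cd14, the lipopolysaccharide co-receptor, by 3.92. Stat5a, which carries the prolactin signal, rose by 1.38, and Ccnd1 (cyclin D1) by 2.01. Hey1, a Notch target, rose by 2.15. CD24highCD49fmed cells, for which the study uses the progenitor name, measured 1.70, 2.34 and 1.60 for Kit and 2.26, 2.58 and 2.28 for Elf5, below both CD24medCD49f-/low values of each gene. The median of the list was 1.03 and 1.08 in CD24medCD49f-/low cells and 0.34 to 0.41 in CD24highCD49fmed cells, without overlap, a difference that was not tested here.

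Socs2, a feedback inhibitor of hormone signalling through Stat5, differed by -1.41 and Itgb3 (CD61), used elsewhere as a luminal progenitor marker in mice, by -1.73. Itgb3 measured -0.67 and -0.98 in CD24medCD49f-/low cells and 0.89, 0.90 and 0.94 in CD24medCD49fmed cells, with little spread within either group. Cebpb, Id2, Lmo4 and Cish, with differences between -0.53 and -0.26, did not pass.

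Hormone-sensing genes were split. Of 11 measured (19 listed), 6 rose and 2 fell. Esr1, the estrogen receptor, measured 1.23 and 1.61 in CD24medCD49f-/low cells and -1.80, -1.14 and -0.68 in CD24medCD49fmed cells (difference 2.63, limma adjusted p = 0.000399). Pgr, the progesterone receptor, rose by 2.32, and Foxa1, a pioneer factor of the estrogen response, by 3.45. Cxcl15, a chemokine, rose by 4.10. CD24highCD49fmed cells had higher values of Esr1 (2.62, 2.08 and 2.20) and Foxa1 (2.66, 2.56 and 2.64) than both CD24medCD49f-/low arrays, and the list median was 0.33 and 0.56 in CD24medCD49f-/low cells and 1.64 to 1.79 in CD24highCD49fmed cells, which was not tested here. For Esr1, Pgr, Foxa1 and Cxcl15 the value in CD24medCD49fmed replicate 1 was the lowest. Wnt4, a target of progesterone, rose by 1.14 and Cited1 by 3.12, and each lost its call when CD24medCD49f-/low replicate 2 was left out (limma adjusted p = 0.0803 and 0.122). The paracrine ligand gene Tnfsf11 (RANKL) did not pass (difference 0.07). Ptger3 and Wnt5a fell (differences of -1.28 and -0.86), calls that were lost without either CD24medCD49f-/low array (limma adjusted p of at least 0.0722 for Ptger3 and 0.0516 for Wnt5a).

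Keratins and junctions of the luminal layer were nearly all higher in CD24medCD49f-/low cells. Of 31 measured genes (32 listed) 27 rose, 1 fell and 3 did not pass, with a median of 2.13. Tight junction claudins were prominent. Cldn7 measured 2.76 and 2.82 in CD24medCD49f-/low cells, against -2.34, -1.91 and -0.37 in CD24medCD49fmed cells, and rose 20.1-fold (limma adjusted p = 0.000203). Cldn4 rose by 3.78, Cldn8 by 2.87, Cldn3 by 2.36 and Cldn1 by 2.05. In the whole claudin family, gathered after the values were seen, 9 of 10 members rose, and the exception was the endothelial Cldn5 at -1.82. Cldn5 passed only without CD24medCD49fmed replicate 3 (-2.80, limma adjusted p = 0.0119) or with a replicate block in the fit. Ocln, Marveld2 and Marveld3, the membrane proteins that complete the junction, rose by 3.13, 3.27 and 3.24.

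Ehf and Elf3, epithelial ETS factors, rose by 4.12 and 2.68, and Muc1, a mucin of the apical surface, by 3.55. Krt7 measured 1.90 and 2.17 in CD24medCD49f-/low cells and -1.97, -1.98 and -0.32 in CD24medCD49fmed cells, with CD24medCD49fmed replicate 3 nearest to the luminal values. Krt19 gave the same picture, at 1.46 and 1.64 in CD24medCD49f-/low cells and -2.84, -1.67 and 0.54 in CD24medCD49fmed cells, and its call was lost without either CD24medCD49f-/low array (limma adjusted p = 0.0776 and 0.0982). The median of the whole list was 1.35 and 1.37 in CD24medCD49f-/low cells and -1.14, -0.88 and -0.38 in CD24medCD49fmed cells, so that replicate 3 was nearest to the luminal arrays. Epcam and Cdh1 (E-cadherin), present in both epithelial layers, rose by 1.11 and 1.49, the call of Epcam being lost without either CD24medCD49f-/low array (limma adjusted p = 0.0641 and 0.0551). Krt23 was the exception, at -1.14 and -0.19 in CD24medCD49f-/low cells and 0.96, 1.47 and 1.37 in CD24medCD49fmed cells.

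Defence genes of the mucosal surface were the next group, and the CD24medCD49f-/low arrays differed from each other there. Of 18 measured (31 listed) 11 rose and 3 fell, with a median of 2.04, and 7 rose without CD24medCD49fmed replicate 2. Plet1, a surface protein of epithelial progenitors, and Wfdc18, a whey acidic protein family member, rose by 4.61 and 4.76, with like values in both CD24medCD49f-/low arrays (3.18 and 2.88 for Plet1, 2.67 and 2.79 for Wfdc18). Dmbt1, a mucosal scavenger glycoprotein, measured 0.72 and 3.57 in CD24medCD49f-/low cells and -2.46, -2.62 and -2.29 in CD24medCD49fmed cells (difference 4.60, SE 0.66). S100a9, a subunit of calprotectin that neutrophils also carry, measured 4.10 and 1.25 in CD24medCD49f-/low cells and -0.04, -0.95 and -0.60 in CD24medCD49fmed cells. S100a8, its partner, measured 3.59 and 0.24 in CD24medCD49f-/low cells and -0.49, -0.64 and -0.56 in CD24medCD49fmed cells.

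Replicate 1 of CD24medCD49f-/low was thus high for calprotectin and Lyz2 and replicate 2 for Dmbt1. These genes did not overlap between the populations, as was so for 30.9% of all rows in this direction. The call of S100a8 was lost without CD24medCD49f-/low replicate 1 (0.81, limma adjusted p = 0.147), and those of S100a8 and S100a9 without CD24medCD49fmed replicate 2 (2.45 and 2.99, adjusted p = 0.132 and 0.0559). Cxcl2, a neutrophil-attracting chemokine, rose by 3.32 and Lrg1 by 2.46. Slpi, a secreted inhibitor of leukocyte proteases, ran opposite, at -1.51 and -1.84 in CD24medCD49f-/low cells and 1.88, 1.17 and 2.43 in CD24medCD49fmed cells (difference -3.51). Chil1 and Ang fell (differences of -2.69 and -1.34), Ang losing its call under 6 of 12 alternatives. Lcn2, lipocalin 2, did not pass (difference 0.54). In the interferon and antigen presentation list (13 of 26 measured), 3 rose and 0 fell, beside 16.5% and 18.3% of all rows. Without CD24medCD49fmed replicate 1, 6 rose. The 3 were the immunoproteasome subunits Psmb8 (1.49) and Psmb9 (1.60) and the GTPase Iigp1 (1.81), whose call was lost without either CD24medCD49f-/low array (limma adjusted p = 0.0529 and 0.0982).

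Several transporters were among the 15 largest rises. Slc5a5, the sodium iodide symporter that brings iodide into milk, measured 2.38 and 2.71 in CD24medCD49f-/low cells and -2.77, -2.66 and -1.67 in CD24medCD49fmed cells (difference 4.91, limma adjusted p = 1.54e-05). Slc5a7, a choline transporter, rose by 4.59, the glucose transporter Slc5a1 by 4.43 and the monocarboxylate transporter Slc5a8 by 3.74. With Slc5a6 (1.79), 5 of 6 measured members of this sodium-coupled family rose, whereas over all 98 measured solute carriers 28 rose and 25 fell (17 and 18 without CD24medCD49f-/low replicate 2). Both families were gathered after the values were seen, and over all rows 16.5% rose and 18.3% fell. Atp6v1b1, a proton pump subunit, measured 3.74 and 3.03 in CD24medCD49f-/low cells and -1.62, -1.47 and -1.49 in CD24medCD49fmed cells. It had the largest difference (4.91) among 14 measured subunits of that pump, of which 8 rose and 1 fell, but 3 rose and 0 fell without CD24medCD49f-/low replicate 1, and likewise without replicate 2.

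The chloride channel gene Clic6 rose by 4.68 and Cytip, which regulates leukocyte adhesion, by 5.18. Ido1, an interferon-inducible enzyme of tryptophan breakdown, measured 2.53 and 2.50 in CD24medCD49f-/low cells and -2.87, -2.96 and -0.95 in CD24medCD49fmed cells. Fcgbp, a mucus protein, rose by 4.77, and Lif, a cytokine of the IL-6 family, by 4.53. In the list of lipid synthesis and transport (16 of 31 measured), 3 rose and 3 fell. These counts are close to the shares over all rows, 16.5% higher and 18.3% lower. The desaturase Scd1 rose by 2.06, and Acly and Elovl6 did not pass (0.12 and -0.09).

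**Figure D4:**
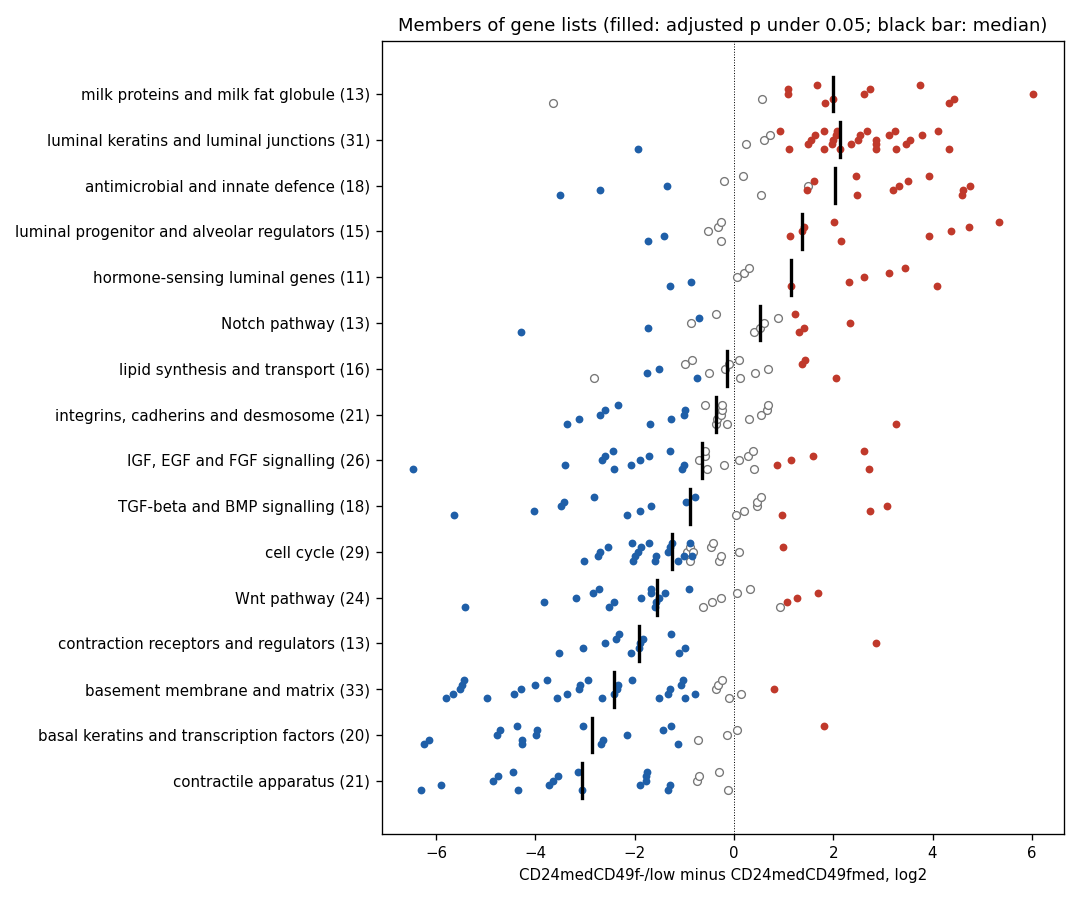
Differences in log2 (x axis, CD24medCD49f-/low minus CD24medCD49fmed) of the members of 16 gene lists (y axis, measured members in brackets). Filled points passed the limma threshold, red higher and blue lower in CD24medCD49f-/low cells, open points did not, and black bars are medians, which run from 2.13 for luminal keratins and junctions to -3.07 for the contractile apparatus.

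The contractile apparatus was the list with the lowest median. Of 21 measured genes (25 listed), 0 rose, 17 fell and 4 did not pass, with a median of -3.07. Actg2, the gamma actin of smooth muscle, measured -3.42 and -3.77 in CD24medCD49f-/low cells, against 2.53, 2.78 and 2.82 in CD24medCD49fmed cells, a 79.4-fold difference. Myl9, a regulatory myosin light chain whose window is printed above, measured -3.68 and -3.52 in CD24medCD49f-/low cells and 2.58, 1.92 and 2.41 in CD24medCD49fmed cells. Mylk, the kinase that switches this light chain on, fell by 4.85, and the thin filament genes Tpm2, Tagln and Cnn1 fell (differences of -4.76, -4.45 and -4.34). Myh11, the smooth muscle myosin heavy chain, fell by 3.73 and Cald1 (caldesmon) fell by 3.54. Thus motor, switch and filament genes were all lower in CD24medCD49f-/low cells. Csrp1 did not pass (difference -0.31).

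Receptors and regulators of contraction followed, with 12 of 13 measured genes (24 listed) that fell and 1 that rose, for a median of -1.91. Prkg1, the cGMP-dependent kinase that relaxes smooth muscle, measured -1.42 and -1.77 in CD24medCD49f-/low cells and 1.39, 1.58 and 1.37 in CD24medCD49fmed cells (difference -3.04). Kcnmb1, a subunit of calcium-activated potassium channels, fell by 2.08, and Rgs4, which shortens G protein signals, fell by 2.37. Rgs5 and Ednrb fell (differences of -2.60 and -2.31), but both were high in CD24medCD49fmed replicates 1 and 2 only, at 2.70, 1.57 and -0.33 for Rgs5 over the 3 arrays. The calls of Rgs5 and Ednrb were lost without either CD24medCD49f-/low array, and with quantile normalization. They were also lost without CD24medCD49fmed replicate 2 (limma adjusted p = 0.103 and 0.0952). That of the vasopressin receptor Avpr1a (-1.10) was lost without either CD24medCD49f-/low array, with quantile normalization and with all 14 arrays in 1 fit. Fewer genes of the list fell without CD24medCD49f-/low replicate 2. Agtr1a, an angiotensin receptor, ran opposite to the rest, at 1.10 and 1.26 in CD24medCD49f-/low cells and -1.62, -1.86 and -1.55 in CD24medCD49fmed cells (difference 2.86, limma adjusted p = 3.75e-05).

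Basal keratins and transcription factors gave 16 of 20 measured genes (21 listed) that fell and 1 that rose, with a median of -2.86. Id4, an inhibitor of helix-loop-helix factors, measured -3.56 and -4.01 in CD24medCD49f-/low cells and 2.28, 2.63 and 2.50 in CD24medCD49fmed cells (difference -6.25). Krt17 fell by 6.14, and Krt5, Krt15 and Krt14 fell (differences of -4.78, -4.27 and -4.26). Trp63, the p63 factor that maintains basal epithelium, measured -2.75 and -3.07 in CD24medCD49f-/low cells and 1.61, 2.03 and 1.77 in CD24medCD49fmed cells. Snai2 (Slug) fell by 3.97 and the intermediate filament gene Vim fell by 4.37. Sox9, known from luminal progenitors as well as from basal cells, rose, at 1.27 and 1.50 in CD24medCD49f-/low cells and -0.41, -0.62 and -0.30 in CD24medCD49fmed cells. Sox10 (-0.14) and Krt6a (0.06) did not pass.

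Matrix genes fell nearly throughout. Of 33 measured basement membrane and matrix genes (37 listed), 27 fell, 1 rose and 5 did not pass, with a median of -2.42. The paired collagen chains Col4a1 and Col4a2, the network of the basement membrane, differed by -4.98 and -5.51. Col4a2 measured -3.11 and -3.41 in CD24medCD49f-/low cells and 2.39, 2.17 and 2.19 in CD24medCD49fmed cells, without overlap. Col17a1 and Dst, which encode the hemidesmosome proteins BP180 and BP230, fell (differences of -5.47 and -3.36). Postn, Matn2 and Sparc fell (differences of -5.79, -5.65 and -5.44). Laminin chains were unequal. Lamb1, Lama1, Lamb3 and Lamc1 fell (differences of -4.42, -3.76, -3.13 and -2.93), while Lama2, Lamb2 and Lama5 (-0.25, -0.10 and 0.15) did not pass. Npnt, an integrin ligand, was the gene that rose (0.81), and it lost its call without either CD24medCD49f-/low array (limma adjusted p = 0.229 and 0.114).

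Adhesion receptors were mixed. In the list of integrins, cadherins and desmosomes (21 of 28 measured), 9 fell, 1 rose and 11 did not pass, with a median of -0.36. Itga1 and Itga9 fell (differences of -2.69 and -2.60) and Itga3 fell by 1.69. The beta chains Itgb1 and Itgb4 did not pass (-0.59 and -0.25). Cdh2 (N-cadherin) measured -2.16 and -1.45 in CD24medCD49f-/low cells and 0.89, 1.61 and 1.47 in CD24medCD49fmed cells, opposite in direction to Cdh1. Of the plakophilins of desmosomes, Pkp2 rose by 3.27 and Pkp1 did not pass (-0.13).

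Ligands and binding proteins of growth factors came next. Igfbp3, which binds insulin-like growth factors outside the cell, measured -4.16 and -3.84 in CD24medCD49f-/low cells and 2.44, 2.57 and 2.39 in CD24medCD49fmed cells, an 88.7-fold difference. Igfbp4, Igfbp2 and Igfbp7 fell (differences of -3.41, -2.65 and -2.60), while Igfbp5 did not pass (0.29). In the IGF, EGF and FGF list as a whole (26 of 34 measured), 12 fell and 5 rose (3 without either CD24medCD49f-/low array), with a median of -0.65. Of the ligands, Fgf1, Fgf2 and Nrg1 fell (differences of -2.44, -2.08 and -1.72), and Btc and Hbegf rose by 1.60 and 1.15, Hbegf losing its call without either CD24medCD49f-/low array (limma adjusted p = 0.0571 and 0.0512). Of the receptors, Erbb3 rose by 2.73 and Met by 2.61. Nrg1 encodes a ligand of the Erbb3 receptor. It measured -0.77 in both CD24medCD49f-/low arrays and 0.86, 1.09 and 0.91 in CD24medCD49fmed cells, whereas Erbb3 measured 1.48 and 1.59 in CD24medCD49f-/low cells and -1.72, -1.18 and -0.68 in CD24medCD49fmed cells.

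Wnt pathway genes gave 15 of 24 measured (36 listed) that fell and 3 that rose (1 without CD24medCD49f-/low replicate 2), with a median of -1.54. The secreted antagonist Wif1 had the lowest difference of the list. Wif1 measured -3.01 and -3.18 in CD24medCD49f-/low cells and 2.13, 2.52 and 2.34 in CD24medCD49fmed cells (difference -5.42), and Dkk3 and Sfrp1 fell (differences of -3.82 and -2.41). Lgr5, an R-spondin receptor, measured -1.55 and -1.33 in CD24medCD49f-/low cells and 0.98, 2.47 and 1.80 in CD24medCD49fmed cells. The receptor Fzd7 fell by 2.71, and Procr, the protein C receptor known as a Wnt target in mouse mammary cells, fell by 2.52. The ligands Wnt5b and Wnt7b rose by 1.69 and 1.28, Wnt7b losing its call without either CD24medCD49f-/low array (limma adjusted p = 0.0603 and 0.0508).

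In the Notch pathway (13 of 21 measured), 4 rose and 3 fell, beside 16.5% and 18.3% of all rows. The ligand Dll1 measured -2.44 and -2.38 in CD24medCD49f-/low cells and 1.49, 2.15 and 1.98 in CD24medCD49fmed cells, and the ligand Jag1 fell by 1.73. The receptors Notch3 and Notch1 rose by 2.33 and 1.23, and Numb, an intracellular inhibitor of Notch, by 1.41. Without CD24medCD49f-/low replicate 2, Notch1 did not pass (0.96, limma adjusted p = 0.112). Of the list, 2 genes rose without that array. Lfng, which modifies the receptors, fell by 0.71 and lost its call under 7 of the alternatives.

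In the TGF-beta and BMP list (18 of 29 measured), 10 fell and 3 rose, with a median of -0.88. Fst (follistatin), which binds activins, measured -2.90 and -3.54 in CD24medCD49f-/low cells and 2.54, 2.39 and 2.31 in CD24medCD49fmed cells. Inhbb, the beta B chain of activin, rose instead, at 2.25 and 2.21 in CD24medCD49f-/low cells and -0.92, -0.93 and -0.72 in CD24medCD49fmed cells (difference 3.09). Ligand chain and antagonist were thus high in opposite layers. Ltbp2 fell by 3.48 and Ltbp1 rose by 2.75, both latent TGF-beta binding proteins.

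The largest fall of a named gene was that of Cxcl14, a chemokine, at -3.79 and -4.20 in CD24medCD49f-/low cells and 2.32, 2.62 and 2.62 in CD24medCD49fmed cells (91.7-fold, limma adjusted p = 2.26e-06). Emb (embigin), Antxr1, the sodium channel gene Scn7a, Moxd1 and Tmem88b completed the 15 largest falls, with differences between -5.96 and -5.52.

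Cell cycle genes fell in CD24medCD49f-/low cells. Of 29 measured genes (40 listed), 19 fell, 1 rose and 9 did not pass, with a median of -1.25, and 11 fell when CD24medCD49f-/low replicate 1 was left out. Mki67 measured -2.62 and -2.84 in CD24medCD49f-/low cells and -0.16, 0.48 and 0.56 in CD24medCD49fmed cells (difference -3.02, limma adjusted p = 7.43e-05). Ccnb2 (cyclin B2) measured -2.26 and -1.95 in CD24medCD49f-/low cells and -0.45, 1.02 and 1.23 in CD24medCD49fmed cells. Top2a and the ribonucleotide reductase subunit Rrm2 fell (differences of -2.06 and -2.54). CD24medCD49fmed replicate 1 was the lowest of its population for these 4 genes, which are among the most lowered of the list. Their groups did not overlap, as was so for 29.1% of all rows in this direction. Aurka was the one that rose (0.99), and it lost its call without either CD24medCD49f-/low array (limma adjusted p = 0.103 and 0.253). In the list of the dissociation response (12 of 24 measured), 2 rose (Klf6 and Fosb) and 3 fell (Egr3, Socs3 and Myc). Over all rows 16.5% rose and 18.3% fell. The calls of Egr3 and Socs3 were lost without CD24medCD49f-/low replicate 1, and those of Fosb and Myc without replicate 2.

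The last comparison asked whether the lineage difference between these populations differed from that of the other luminal and basal populations, CD24highCD49fmed minus the mean of the Thy-1+ and Thy-1-CD24medCD49fhigh populations. In a limma contrast of contrasts over 14 arrays, 0 of 7190 rows (0%) passed the threshold, and 253 had an unadjusted p under 0.05, against 360 by chance. The smallest adjusted p was 0.271. With array weights 189 rows passed, and without CD24medCD49f-/low replicate 2, 2 rows passed. The median over all rows was -0.43 in this test, and the other pair had a median difference of 0.52. Array medians were -0.742 and -0.509 in Thy-1+ replicates 1 and 3 and -0.148 in Thy-1- replicate 2. In CD24highCD49fmed cells they were 0.229 to 0.283. With arrays centred on their medians 0 rows passed as well. The arrays of the pairs are distinct, but values are centred over all of them.

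The 5 named genes with the smallest p on each side of 0 in that test are given as values. On the positive side, Snorc, a small proteoglycan gene known from cartilage, averaged 2.11 in CD24medCD49f-/low and -0.91 in CD24medCD49fmed cells, against 0.17 in CD24highCD49fmed cells and -0.34 and -0.33 in the Thy-1+ and Thy-1- populations (limma adjusted p = 0.271). S100a9 had a difference of 3.21 between CD24medCD49f-/low and CD24medCD49fmed cells and of -0.41 in the other pair, Atp6v1b1 4.91 and 2.41, Slc5a7 4.59 and 2.55, and Clic6 4.68 and 2.72. On the negative side were 5 cell cycle genes. By that choice, their differences between CD24medCD49f-/low and CD24medCD49fmed cells were lower than those in the other pair. Ccnb2 had -2.70 in CD24medCD49f-/low minus CD24medCD49fmed cells and 0.13 in the other pair, Cenpe -2.74 and -0.26, Pclaf -2.14 and 0.33, Mki67 -3.02 and -0.66, and Ncapg -1.91 and 0.50. None of the 10 genes passed, with limma adjusted p between 0.271 and 0.79.

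**Figure D5:**
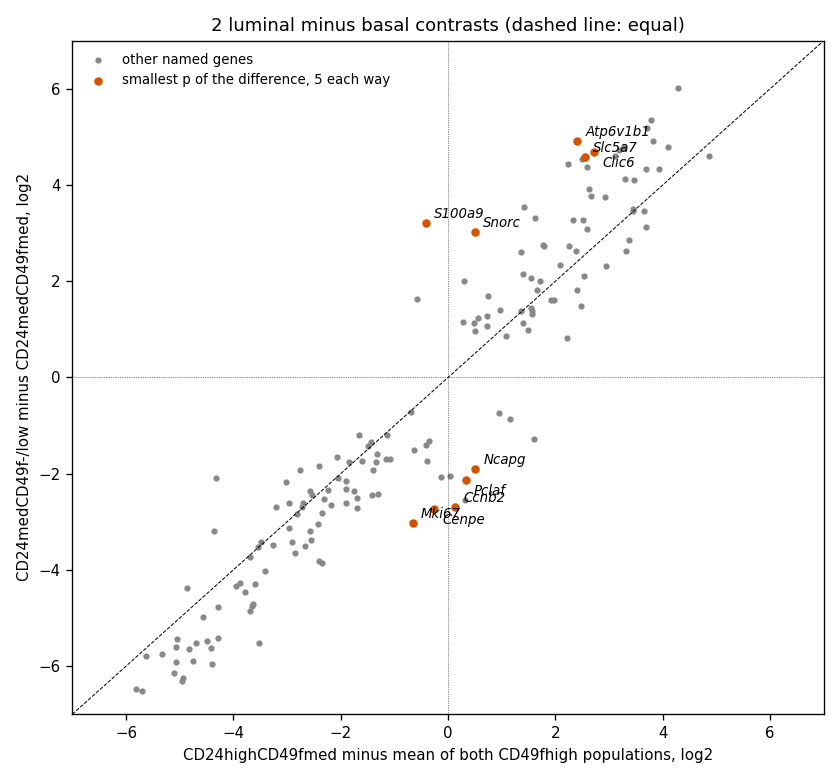
Differences in log2 of named genes between CD24medCD49f-/low and CD24medCD49fmed cells (y axis) and between CD24highCD49fmed cells and the mean of both CD49fhigh populations (x axis), with the line of equality dashed. Orange points are the 5 genes on each side of 0 with the smallest p of the difference, with Snorc at 3.02 on the y axis and 0.50 on the x axis, and Ccnb2 at -2.70 and 0.13, and none passed the threshold.

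Genes whose values ran most like those of the markers over the 14 arrays were found by Pearson correlation, as a description of arrays that share populations. Closest to Ltf were Elf5 (r = 0.992), Dapp1 (0.989) and Cd14 (0.988), and to Lalba Snorc (0.956), Scnn1b (0.946) and Muc20 (0.943). Closest to Acta2 were Fst (0.995), Gprin3 (0.994) and Dpysl3 (0.993), and to Oxtr Ephb1 (0.994), Palld (0.991) and Fmod (0.991). In CD24highCD49fmed cells Ltf measured 2.65, 2.73 and 2.82, below both CD24medCD49f-/low values, whereas Acta2 measured -2.11, -2.07 and -1.69, overlapping with CD24medCD49f-/low cells.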

How the data were processed

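RNA from 14 samples was measured on Affymetrix mouse genome arrays, of which 2 CD24medCD49f-/low and 3 CD24medCD49fmed arrays were compared. The authors deposited log2 values, normalized by robust multichip average in MIDAS, filtered in Cluster 3.0 for signal and for a large difference between arrays, and mean-centred per probe set, so that signal over background could not be examined. The submitters' processing notes also name GCRMA. Their versions were not given in the sources used here.

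Of 9645 probe sets, 8499 with 1 gene symbol in the platform annotation were averaged to 6044 genes (1765 had more than 1). Those with several symbols (199) or no symbol (947) stayed single and unnamed, giving 7190 rows. Cd24a, Itga6 and Prlr were not analysed here. Groups were compared by moderated linear models (limma 3.58.1, R 4.3.3), two-sided, Benjamini-Hochberg adjusted over all rows, with a threshold of 0.05. Scripts used Python 3.11.15 (numpy 2.4.6, pandas 2.3.3), with figures from matplotlib 3.10.9, and the fit was tested on simulated data. The methods' rank product test permutes values over genes and was not used.

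Members and gene lists were chosen with earlier results of these data known. Named genes were 4 markers, the 15 largest called rises and falls without overlap, the most changed members of lists, the extremes of the contrast of contrasts, and the genes most like each marker. Others were added after values were seen. Alternatives were all 14 arrays in 1 fit, a replicate block, array weights, single probe sets, median centring, quantile normalization, an absolute difference of 1 or more, a row range of at least 3 log2, and leaving out each array.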

Additional observations from a re-analysis of the deposited data

How the results depend on the processing

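None of the 2503 calls changed sign under the alternatives that keep gene averages, where those with a row range under 3 log2 could not be compared in that filter, and 2 had the opposite sign in their single probe set of largest spread. Counts moved more. With all 14 arrays in 1 fit 1289 rows passed (537 higher, 752 lower in CD24medCD49f-/low cells), and among rows with a range of at least 3 log2, fewer rows by construction, 1095 passed (487 higher, 608 lower). Leaving out 1 array gave 1456 to 2824 calls, 581 to 1286 higher and 866 to 1538 lower, with the fewest without CD24medCD49f-/low replicate 2 (1456) or replicate 1 (1541), which leaves 1 luminal array whose spread is taken from the CD24medCD49fmed arrays. Array weights, single probe sets, median centring, quantile normalization and a difference of at least 1 gave 3105, 3605, 2567, 2474 and 2039 calls. Replicate numbers are shared by only 2 pairs of arrays (r = 0.221 and 0.144) and were not taken as pairing; with a replicate block 2859 rows passed (1334 higher, 1525 lower). The contrast of contrasts gave 189 calls with array weights (52 higher, 137 lower), 0 to 2 when 1 array was left out (2, both higher, without CD24medCD49f-/low replicate 2), and 0 under its other alternatives, the replicate block included. Of 253 named genes, 35 lost their call without CD24medCD49f-/low replicate 1, 37 without replicate 2, 23 without CD24medCD49fmed replicate 2 and 38 with all 14 arrays in 1 fit. The cause was not tested. The number of arrays limits the precision.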
